A study of Homo sapiens with 6 samples.

Results

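Polycomb repressive complex 2 (PRC2) methylates lysine 27 of histone H3 and keeps developmental genes silent. EZH2 or its paralogue EZH1 carries the catalytic domain, SUZ12 is the scaffold, EED reads the trimethylated mark and stimulates the enzyme, and RBBP4 or RBBP7 binds histones. The core joins either a Polycomb-like protein (PHF1, MTF2 or PHF19), giving the form called PRC2.1, or JARID2 with AEBP2, giving PRC2.2. In neuroblastoma, a childhood tumor of the sympathetic lineage that is often driven by the transcription factor MYCN, EZH2 is known as a repressor of differentiation genes. The 10 genes described here are EZH1, EZH2, SUZ12, EED, RBBP4, RBBP7, PHF19, MTF2, JARID2 and AEBP2, found by symbol among the 60651 genes of the count tables.

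Total RNA of neuroblastoma cells was sequenced in 6 libraries, 3 labelled EtOH and tagged as control, and 3 labelled Tet and tagged as induction, for which the protocol gives 5 days of tetracycline. The labels disagree on the cell model. The titles name IMR-5/75, a MYCN-amplified line, and the samples carry a knockdown tag, whereas the growth protocol describes clones of SK-N-SH in which tetracycline releases a repressor from a MYCN expression construct. The study also used an IMR-5/75 line with a tetracycline-inducible short hairpin RNA against MYCN. Neither a construct nor a passage was given per library, so the groups are called by their titles. Libraries held 27933378 to 40498065 counts in genes, and 3 counts corresponded to 0.0741 to 0.107 CPM, the count of a gene scaled to a fixed library size. The labels do not say whether replicates of a group were separate cultures, while the methods of the study give independent biological replicates as the rule for work in culture. If that rule did not hold here, the p-values measure technical spread. MYCN was measured at 158, 256 and 156 CPM in the EtOH libraries and at 197, 200 and 145 CPM in the Tet libraries. These ranges overlapped and the log2 fold change of Tet against EtOH was -0.07 (SE 0.23, adjusted p = 0.956), so MYCN mRNA does not show which way the system moved it, and all directions compare the labels alone. EtOH replicate 2 stood apart from the other libraries. It lay at 84.2 on the principal component that held 44.7% of the variance, where EtOH replicates 1 and 3 lay at -55 and -37 and Tet replicate 2 at 47.3, and 4.12% of its counts were mitochondrial, against 5.86 to 10% elsewhere. The component with 25.7% of the variance separated the groups. Among 10 adrenergic neuroblastoma markers none was at 0, GATA3 (229 to 334 CPM) was abundant, and the noradrenaline enzymes TH and DBH were at 1 and 36 counts over all libraries. Their summed level was 567 to 691 CPM in EtOH and 710 to 860 CPM in Tet. No marker of this list passed the test, and 6 of its 8 tested genes were higher without overlap in Tet, as were 9.2% of all genes tested. The 8 mesenchymal markers summed to 143 to 270 CPM in EtOH and 136 to 194 CPM in Tet with COL1A2 at 0, and the 6 blood and endothelial markers to 0.529 to 1.14 and 0.496 to 0.592 CPM with CD3E, HBB and VWF at 0. The part of these markers in the PRC2 values was not tested.

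The start regions of 4 members are shown because they differ in the letters that factors of growth and the cell cycle are known to read. RefSeq (GRCh38.p14) gave 15 start sites for the 10 members, and the 250 bases before each were searched on both strands for the E-box CACGTG, read by MYC family proteins with MAX, for the E2F letters TTTGGCGC, TTTCGCGC, TTTCCCGC and TTTGGCGG, and for the CCAAT box, read by NF-Y. The sequences run 5′ to 3′ on the gene's strand and end where the annotated gene begins, with E-box, E2F and NF-Y letters of either strand in capitals. They lie at chr17:42745050-42745290 on the minus strand for EZH1, chr7:148884322-148884541 on the minus strand for EZH2, chr17:31936757-31937006 on the plus strand for SUZ12, and chr1:32650958-32651141 on the plus strand for RBBP4.
EZH1: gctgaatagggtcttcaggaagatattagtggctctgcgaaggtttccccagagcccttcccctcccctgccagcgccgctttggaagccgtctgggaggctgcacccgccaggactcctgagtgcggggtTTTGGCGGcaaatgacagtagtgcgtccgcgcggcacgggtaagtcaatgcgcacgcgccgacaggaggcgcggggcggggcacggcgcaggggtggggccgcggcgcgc
EZH2: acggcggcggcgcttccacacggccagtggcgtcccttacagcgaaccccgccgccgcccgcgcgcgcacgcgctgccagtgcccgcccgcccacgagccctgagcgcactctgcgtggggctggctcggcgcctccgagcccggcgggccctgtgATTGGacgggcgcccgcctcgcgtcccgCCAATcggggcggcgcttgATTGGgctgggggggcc
SUZ12: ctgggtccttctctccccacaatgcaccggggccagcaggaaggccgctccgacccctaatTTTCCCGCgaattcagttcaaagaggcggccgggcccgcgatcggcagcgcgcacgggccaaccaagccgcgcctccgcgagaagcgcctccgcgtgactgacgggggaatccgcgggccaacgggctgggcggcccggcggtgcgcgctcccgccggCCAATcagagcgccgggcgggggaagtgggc
RBBP4: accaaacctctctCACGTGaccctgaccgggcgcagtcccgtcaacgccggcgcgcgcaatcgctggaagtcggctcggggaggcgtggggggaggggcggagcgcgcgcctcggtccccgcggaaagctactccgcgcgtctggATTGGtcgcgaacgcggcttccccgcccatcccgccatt
Distances count back from the RefSeq start site, which lies 66 bases inside the annotated gene for RBBP4 and 9 for EZH1. An E-box lay before 1 of the 15 start sites, that of RBBP4 at 237 bases, and 6.34% of the 35116 promoters of this length held one. E2F letters lay before 3 of the 15, EZH1 at 119, SUZ12 at 189 and PHF19 at 152 bases, against 2.83% of all promoters. That PHF19 start site lies 17708 bases inside the annotated gene. The EZH2 run shown held no E-box or E2F letters and 3 NF-Y boxes. An NF-Y box lay before 10 of the 15 start sites, some of which overlap, and 32% of all promoters had one. Such matches describe the sequence only.

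The members covered a wide range of levels. Per exon length, in TPM, which scales counts per exon length to a fixed sum, and as the mean over the 6 libraries, RBBP4 stood at 231 ± 41.7 (SD, n = 6), MTF2 at 157 ± 41.1, SUZ12 at 112 ± 31.5 and EZH2 at 103 ± 19.6. RBBP7 followed at 43.8 ± 4.74 TPM, AEBP2 at 40.4 ± 11.7, JARID2 at 29.2 ± 2.85, EZH1 at 22.5 ± 9.16 and EED at 17.5 ± 8.28, with PHF19 last at 0.728 ± 0.158 TPM. Neighbours in this order differed beyond the range of the libraries at only 2 places, between EZH2 and RBBP7 and between EED and PHF19. Within each library, RBBP4 was above MTF2 and MTF2 above SUZ12 in 6 of 6, SUZ12 above EZH2 in 5, RBBP7 above AEBP2 in 5, AEBP2 above JARID2 in 5, JARID2 above EZH1 in 4 and EZH1 above EED in 4. RBBP4, a subunit that other chromatin complexes share, thus had the highest mean and EED the lowest of the core.

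**Figure D1:**
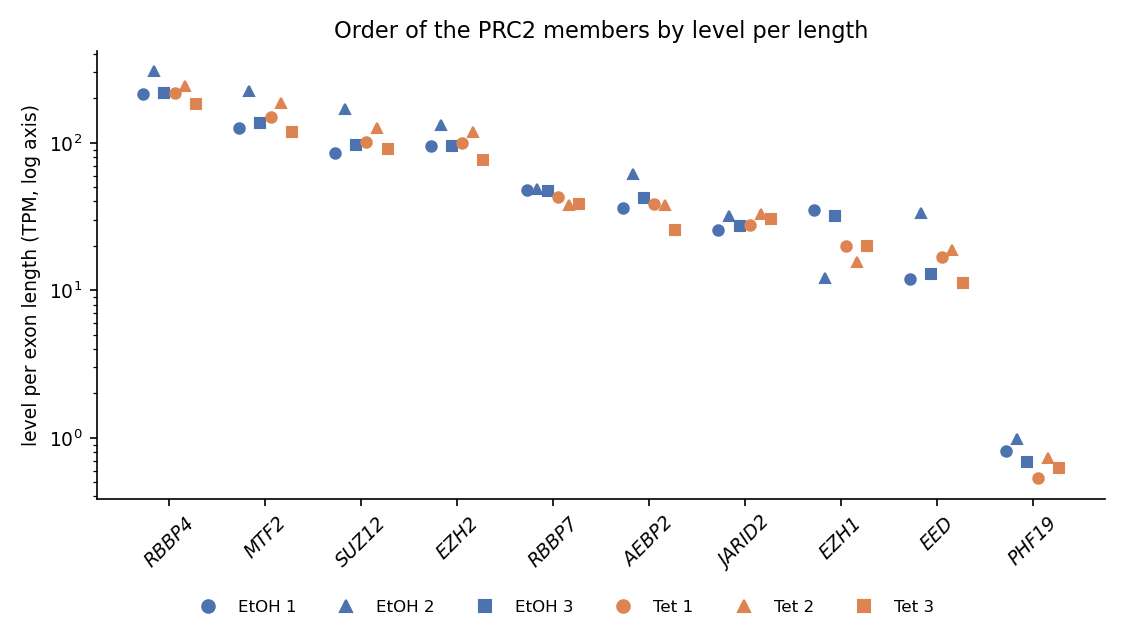
Level of each PRC2 member per exon length (TPM, log axis) in each of the 6 libraries, ordered by mean; marker shapes give the replicate number and colours the group. RBBP4 (184 to 306 TPM) heads the order, and PHF19 (0.531 to 0.986 TPM) lies far below EED (11.3 to 33.3 TPM).

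None of the 10 members passed the test between Tet and EtOH, in edgeR's quasi-likelihood test with Benjamini-Hochberg adjustment over the 22443 genes tested. Of all genes 53 passed (33 higher and 20 lower in Tet), or 0.236%, and 0 of 10 members is near that background. In bulk RNA, fewer expressing cells and less RNA per cell cannot be told apart. At an unadjusted p under 0.05 the members again counted 0, against 10.8% of all genes, and the smallest unadjusted p was 0.0948, for AEBP2. DESeq2 and limma-voom also called 0 members. The log2 fold changes ran from -0.46 to 0.18 with a median of -0.16. The fitted value was below 0 for 9 members and above 0 for 1, JARID2, where all genes had a median of -0.01 with 50.7% below 0. The standard errors were 0.13 to 0.38, so that changes of the size seen here could not be told from the spread between libraries.

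**Figure D2:**
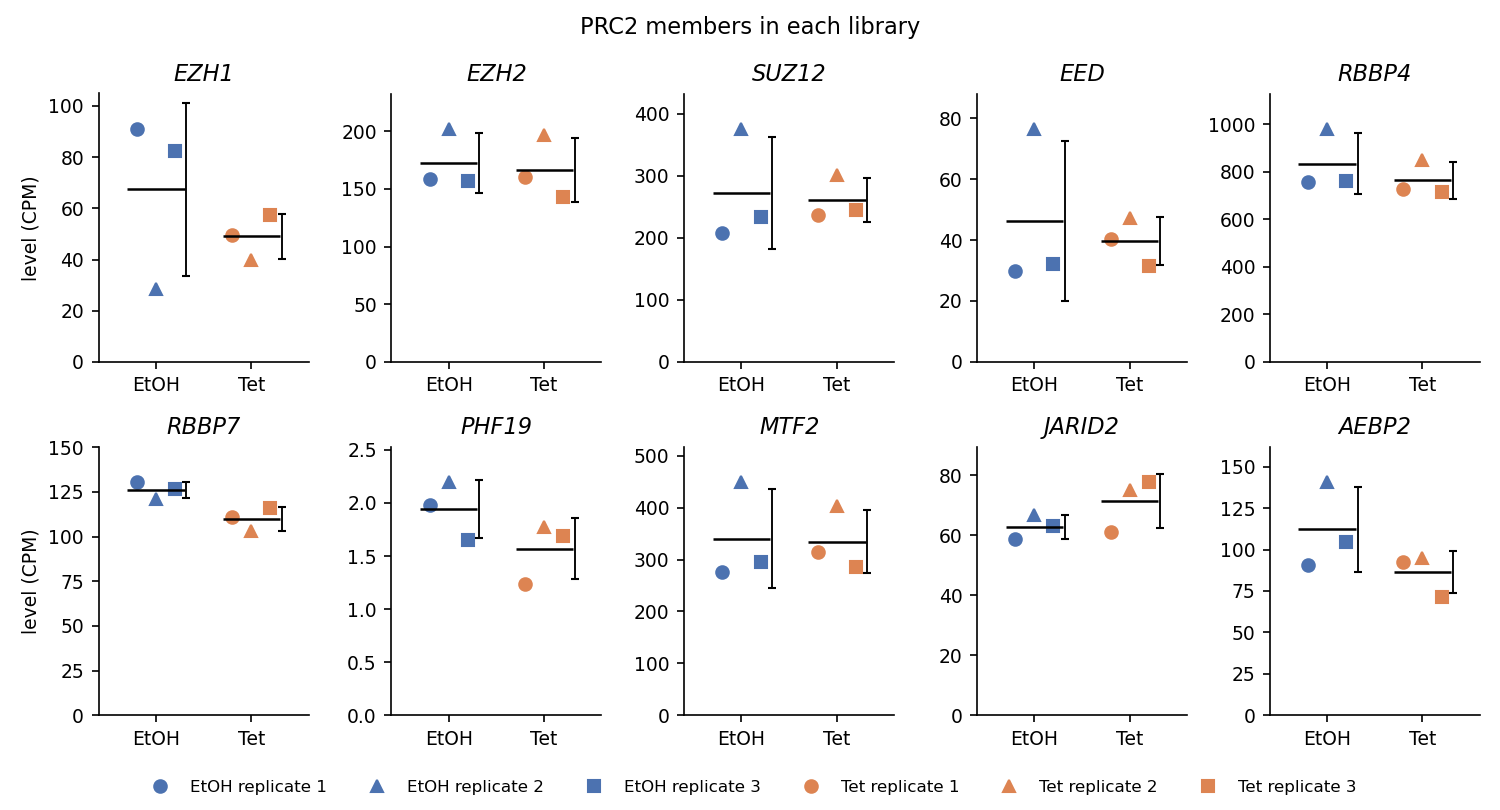
Level of each PRC2 member (CPM, each axis from 0) in the EtOH and Tet libraries; marker shapes give the replicate number, horizontal lines the group means and bars 1 SD (n = 3). EtOH replicate 2 (blue triangle) is the highest library for EZH2, SUZ12, EED, RBBP4, PHF19, MTF2 and AEBP2 and the lowest for EZH1, and RBBP7 is the member whose groups do not overlap.

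EZH1 (ENSG00000108799.13, chr17:42700275-42745049, minus strand), the paralogue that is known to persist in resting cells, had the largest fitted difference. Its level was 91.2, 28.7 and 82.3 CPM in EtOH and 49.7, 39.9 and 57.4 CPM in Tet. EtOH replicates 1 and 3 were above every Tet library and EtOH replicate 2 was below every one, so the groups overlapped. The log2 fold change was -0.46 (SE 0.38, adjusted p = 0.745), with a 95% interval of 0.400 to 1.32 for the fold. Without EtOH replicate 2 it was -0.82 (SE 0.17, adjusted p = 0.0356), which passed, beside 1.38% of the 23935 genes then tested that passed as lower in Tet. That call rests on leaving out a library chosen after its values were seen.

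EZH2 (ENSG00000106462.11, chr7:148807383-148884321, minus strand), the paralogue of dividing cells, was measured at 158, 202 and 157 CPM in EtOH and 160, 197 and 143 CPM in Tet. The groups covered nearly the same range, with replicate 2 highest in each. The log2 fold change was -0.05 (SE 0.18, adjusted p = 0.961), and the 95% interval of the fold was 0.728 to 1.28. A doubling or halving of EZH2 mRNA lay outside that interval. A pseudogene copy, EZH2P1, held 6 counts in all.

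The ratio of the paralogues within a library does not depend on scaling. EZH2 exceeded EZH1 in each library, by 2.68, 10.9 and 2.95 times per length in EtOH and by 4.99, 7.61 and 3.84 times in Tet. EZH2 thus made up 72.9 to 91.6% of the sum of both in EtOH and 79.3 to 88.4% in Tet. The Tet ratios lay between EtOH replicates 1 and 3 on the low side and EtOH replicate 2 on the high side. On the log2 scale the ratio was 2.14 ± 1.13 (SD, n = 3) in EtOH and 2.395 ± 0.50 in Tet, a difference of 0.25 (exact two-sided permutation p = 0.8, where 0.1 is the smallest that 3 against 3 allow). Without EtOH replicate 2 the difference was 0.90, and all 3 Tet ratios then exceeded both EtOH ratios (exact permutation p = 0.2).

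**Figure D3:**
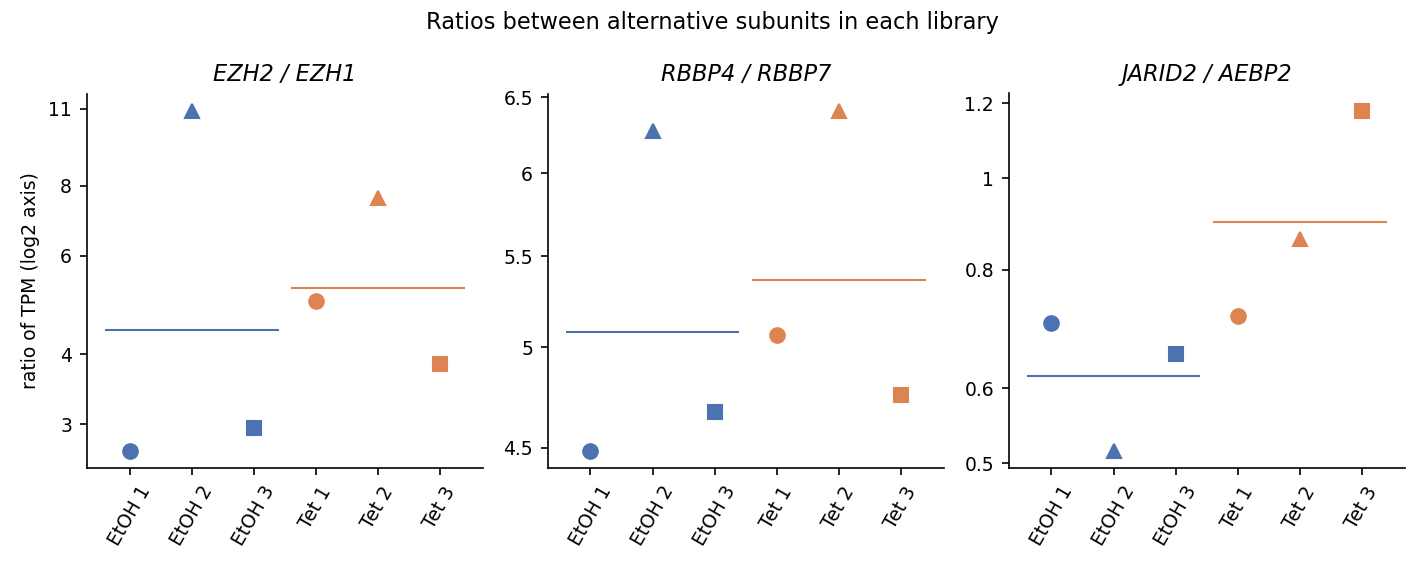
Ratio of TPM between alternative subunits (log2 axis) in each library, with horizontal lines at the geometric mean of each group. EZH2 over EZH1 spans 2.68 to 10.9 and RBBP4 over RBBP7 4.48 to 6.41, each highest in the replicates numbered 2, while JARID2 over AEBP2 spans 0.515 to 0.704 in EtOH and 0.715 to 1.18 in Tet.

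SUZ12 (ENSG00000178691.11, chr17:31937007-32001038, plus strand), on which the rest of the complex assembles, was at 207, 376 and 234 CPM in EtOH and 236, 301 and 244 CPM in Tet. EtOH replicate 2 was 1.70 times the mean of the other EtOH libraries, and the groups overlapped. The log2 fold change was -0.06 (SE 0.24, adjusted p = 0.965). A pseudogene on the same chromosome, SUZ12P1 (chr17:30709299-30790908), was counted at 0.625 to 0.893 of the SUZ12 level per length, and its own log2 fold change was 0.12 (SE 0.17, adjusted p = 0.878). Reads that fit both copies equally were left out according to the file headers and kept according to the methods, so both levels are uncertain.

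EED (ENSG00000074266.22, chr11:86244753-86278813, plus strand), the reader of the mark, varied widely within EtOH. It was measured at 30.0, 76.6 and 32.1 CPM in EtOH and 40.4, 47.2 and 31.5 CPM in Tet. EtOH replicate 2 held 2.47 times the mean of the other EtOH libraries, and without it the sign of the fold turned, from -0.22 (SE 0.36, adjusted p = 0.895) to 0.36 (SE 0.19, adjusted p = 0.310) on the log2 scale. Neither value passed.

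RBBP4 (ENSG00000162521.19, chr1:32651142-32686211, plus strand) was measured at 756, 981 and 761 CPM in EtOH and 725, 850 and 713 CPM in Tet. The 2 lowest libraries were Tet and the highest was EtOH replicate 2. The log2 fold change was -0.13 (SE 0.17, adjusted p = 0.862). On the opposite strand SYNC shares 2160 exon bases with RBBP4, which are 22.8% of its exon length, and the counting did not use strand according to the file headers. Reads from that stretch were therefore split between both genes, and SYNC had 261, 537 and 298 CPM in EtOH against 314, 435 and 314 CPM in Tet. Summing both genes left 0 members called. The pseudogene copies RBBP4P2, RBBP4P1 and RBBP4P4 held 792, 396 and 51 counts over all libraries, and none passed.

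RBBP7 (ENSG00000102054.18, chrX:16839283-16870362, minus strand) was the member whose groups did not overlap. It was measured at 131, 121 and 126 CPM in EtOH and 111, 103 and 116 CPM in Tet, so that the highest Tet library lay under the lowest EtOH library. Of all genes tested, 17.5% were without overlap in either direction, which 1 of 10 members does not exceed. The log2 fold change was -0.20 (SE 0.13, adjusted p = 0.677), with a 95% interval of 0.706 to 1.08 for the fold. The overlapping antisense gene TXLNG, which shares 2.44% of the RBBP7 exon bases, was also lower in Tet without overlap, at a log2 fold change of -0.19 (SE 0.13, adjusted p = 0.681). RBBP4 exceeded RBBP7 in every library, by 4.48, 6.27 and 4.67 times per length in EtOH and 5.06, 6.41 and 4.76 times in Tet. The log2 ratio was 2.35 ± 0.26 (SD, n = 3) in EtOH and 2.42 ± 0.23 in Tet, a difference of 0.08 (exact two-sided permutation p = 0.5).

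Of the Polycomb-like proteins that mark PRC2.1 and bind CpG-rich DNA, MTF2 carried nearly all the mRNA. MTF2 (ENSG00000143033.18, chr1:93079235-93139079, plus strand) was at 275, 450 and 296 CPM in EtOH and 315, 403 and 285 CPM in Tet, with a log2 fold change of -0.03 (SE 0.23, adjusted p = 0.986). PHF19 (ENSG00000119403.15, chr9:120855651-120894896, minus strand) was at 1.98, 2.2 and 1.65 CPM in EtOH and 1.24, 1.78 and 1.69 CPM in Tet. These values rest on 35 to 71 counts a library, and the log2 fold change was -0.31 (SE 0.31, adjusted p = 0.808). MTF2 exceeded PHF19 by 155 to 284 times per length in all 6 libraries. The third Polycomb-like gene, PHF1, was lower still, at 0.391, 0.180 and 0.231 CPM in EtOH and 0.603, 0.621 and 1.13 CPM in Tet. Its log2 fold change of 1.53 (SE 0.51) came from 110 counts over all libraries, the groups did not overlap, and the adjusted p was 0.317.

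The partners of PRC2.2 had fitted differences in opposite directions. JARID2 (ENSG00000008083.14, chr6:15246069-15522042, plus strand), which links the complex to ubiquitinated chromatin and can stimulate it, was at 58.9, 66.9 and 63.0 CPM in EtOH and 61.0, 75.3 and 77.9 CPM in Tet. Tet replicates 2 and 3 were above every EtOH library, and Tet replicate 1 was not. The log2 fold change was 0.18 (SE 0.15, adjusted p = 0.758). AEBP2 (ENSG00000139154.16, chr12:19404045-19720801, plus strand), a zinc finger protein that stabilises the complex, was at 90.8, 141 and 105 CPM in EtOH and 92.4, 94.6 and 71.6 CPM in Tet. The 3 Tet values and EtOH replicate 1 were below the other libraries. Its log2 fold change was -0.38 (SE 0.20, adjusted p = 0.566). The ratio of JARID2 to AEBP2 per length was 0.704, 0.515 and 0.652 in EtOH and 0.715, 0.863 and 1.18 in Tet. The groups did not overlap, by a margin of 0.704 to 0.715, and this ratio was picked after its values were seen and has no test. Summed per length, the genes of PRC2.1 (MTF2, PHF19 and PHF1) exceeded those of PRC2.2 by 2.06, 2.43 and 1.97 times in EtOH and 2.29, 2.64 and 2.12 times in Tet.

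**Figure D4:**
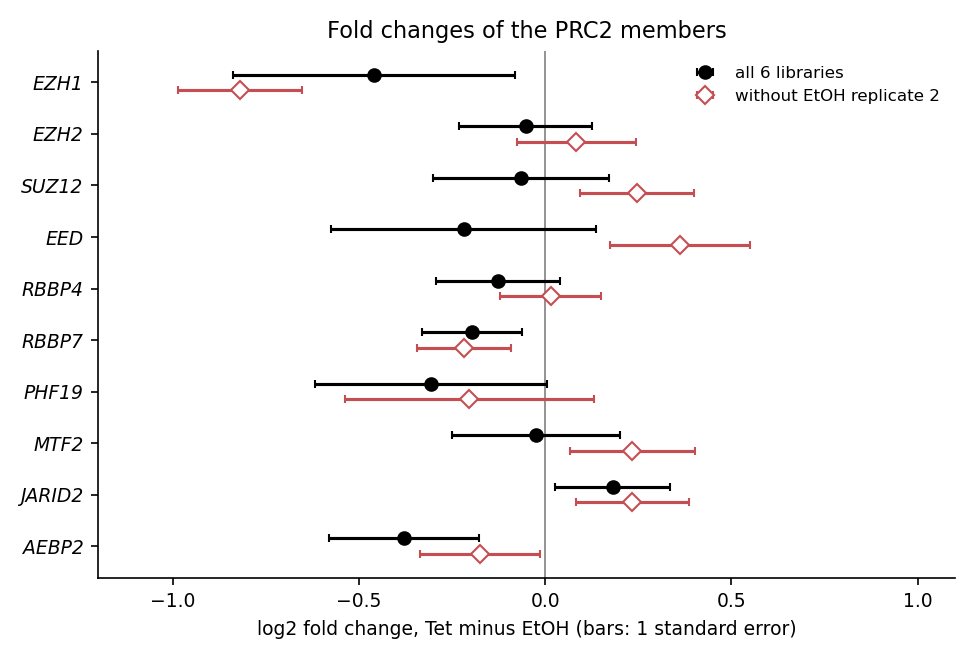
Log2 fold change of Tet against EtOH for each PRC2 member, with bars of 1 standard error, from all 6 libraries (filled circles) and without EtOH replicate 2 (open diamonds). Leaving that library out moves EZH1 from -0.46 to -0.82 and turns the sign for EZH2, SUZ12, EED, RBBP4 and MTF2.

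Replicates of a group differed in the same direction for most members. EtOH replicate 2 was the highest of the 6 libraries for 7 of 10 members, where it was highest for 24.8% of all genes tested. Replicate 2 was the highest of its own group in both EtOH and Tet for EZH2, SUZ12, EED, RBBP4, PHF19, MTF2 and AEBP2, and the lowest in both for EZH1 and RBBP7. Across all genes 24.7% were highest and 28.7% lowest in this way. The paralogue pairs EZH2 and EZH1, and RBBP4 and RBBP7, thus stood on opposite sides in the replicates numbered 2. Without EtOH replicate 2 the log2 fold changes of EZH2, SUZ12, EED, RBBP4 and MTF2 were 0.08, 0.25, 0.36, 0.01 and 0.23. For RBBP7, PHF19, JARID2 and AEBP2 they were -0.22, -0.20, 0.23 and -0.18. The share of mitochondrial counts, the principal component and the summed level of the cell cycle genes given next moved with this library, and their part was not tested.

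Genes that the E2F factors drive through the cell cycle are known to include EZH2 and EED. The 25 genes of the E2F and cell cycle list summed to 2341, 3563 and 2311 CPM in EtOH and 2019, 2689 and 2078 CPM in Tet. EtOH replicate 2 was above both other EtOH libraries for 16 of the 24 tested, and not for the others, AURKA among them. That library was the highest of all 6 for 15 of the 24, as it was for 24.8% of all genes tested. None of 24 tested passed, 20 had a fold below 0, and the median log2 fold change was -0.22 against -0.01 for all genes. E2F1 had the highest value, 0.72 (SE 0.55, adjusted p = 0.718). It was at 1.12, 1.33 and 0.992 CPM in EtOH and 0.567, 1.92 and 3.15 CPM in Tet, and its value was 0.13 without Tet replicate 3 and 1.13 without Tet replicate 1. The mitotic kinase AURKA had the lowest, -0.72 (SE 0.16, adjusted p = 0.131). AURKA was at 27.6, 25.8 and 24.6 CPM in EtOH and 16.3, 16.0 and 14.9 CPM in Tet, with no overlap, and it passed without EtOH replicate 2 (adjusted p = 0.0452) and in DESeq2 (0.00363).

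Further partners of the core were read beside the members. LCOR, a gene of which a form joins PRC2.1, was at 559, 752 and 588 CPM in EtOH and 695, 913 and 621 CPM in Tet, with a log2 fold change of 0.23 (SE 0.20, adjusted p = 0.758). For its relative LCORL the value was -0.09 (SE 0.23, adjusted p = 0.945). EPOP, which competes with other PRC2.1 partners, and EZHIP, an inhibitor of the enzyme, were at 0 counts in all 6 libraries, which allows up to 0.0741 to 0.107 CPM for counting error.

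PRC1, the complex that ubiquitinates histone H2A and can bind the mark set by PRC2, had 24 of 25 genes tested and 0 that passed. The folds split evenly, 12 above and 12 below 0, with a median of 0.01. Its catalytic gene RNF2 was at 89.5, 111 and 91.7 CPM in EtOH and 92.6, 97.8 and 83.9 CPM in Tet (log2 fold change -0.09, SE 0.15, adjusted p = 0.896), and the alternative RING1 held 65 counts over all libraries and was not tested. BMI1 had a log2 fold change of 0.31 (SE 0.29, adjusted p = 0.785) and CBX2, which reads the mark, of 0.15 (SE 0.34, adjusted p = 0.932). The highest value of the list was that of RYBP, 0.62 (SE 0.84, adjusted p = 0.868), which ranged from 0.629 to 7.78 CPM among the Tet libraries and whose fold was -0.10 without Tet replicate 2. The lowest was SCML2 at -0.61 (SE 0.14, adjusted p = 0.141), with 83.9, 86.5 and 84.6 CPM in EtOH against 58.3, 57.3 and 51.2 CPM in Tet. SCML2 did not overlap between groups and passed without EtOH replicate 2 (adjusted p = 0.0482) and in DESeq2 (adjusted p = 0.0148). AUTS2, named after its values were seen, was at 146, 179 and 146 CPM in EtOH and 223, 253 and 206 CPM in Tet, with a log2 fold change of 0.53 (SE 0.16, adjusted p = 0.251) that passed without EtOH replicate 2 (adjusted p = 0.0462).

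Genes of the enzymes and complexes that oppose PRC2 did not pass either. The 13 genes belong to enzymes that remove the mark or to complexes that methylate lysine 4. Of these 0 passed, 10 had a fold above 0, and the median was 0.21. The demethylase KDM6A was at 97.6, 139 and 104 CPM in EtOH and 129, 165 and 105 CPM in Tet (log2 fold change 0.23, SE 0.21, adjusted p = 0.788). KDM6B was at 19.5, 12.05 and 22.9 CPM in EtOH and 19.7, 22.3 and 52.1 CPM in Tet (0.79, SE 0.39, adjusted p = 0.531), where Tet replicate 3 alone was high. SETD1A, at the upper end of the list with 0.89 (SE 0.57, adjusted p = 0.650), was at 5.34 CPM in Tet replicate 3 and 1.09 to 1.70 CPM in the other libraries, and its value was -0.12 without Tet replicate 3. At the lower end was RBBP5 at -0.14 (SE 0.14, adjusted p = 0.808). SETD1B passed without EtOH replicate 2, as higher in Tet.

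Genes that PRC2 is known to hold silent were read as a further group. Of 39 HOX genes, which set position along the body axis, 22 were at 0 counts in all libraries and 28 were not tested, where 32.5% of all genes were at 0 and 63.0% were not tested. Of the 11 tested none passed, 9 had a fold below 0, and the median was -0.28. HOXD13 was at 26.3, 26.1 and 24.8 CPM in EtOH and 12.9, 9.84 and 8.83 CPM in Tet. Each Tet library was below each EtOH library, and the log2 fold change of -1.29 (SE 0.20) had an adjusted p of 0.0535, just short of the threshold. It passed without EtOH replicate 2 (adjusted p = 0.0161), without the filter on low counts (0.00417), in limma-voom (0.0480) and in DESeq2 (3.99e-06), and did not when any other library was left out (up to 0.265). HOXC9 had the highest value of the tested HOX genes, 0.22 (SE 0.50, adjusted p = 0.933).

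Of 20 developmental regulators that carry the mark in stem cells, 13 were at 0 and 2 were tested. The neurogenic factor NEUROG2 was at 18.0, 14.6 and 18.9 CPM in EtOH and 34.0, 32.7 and 23.9 CPM in Tet, without overlap. Its log2 fold change was 0.81 (SE 0.20, adjusted p = 0.175, and 0.0322 in DESeq2). PAX6 was at 2.85, 7.47 and 4.13 CPM in EtOH and 3.58, 4.15 and 3.02 CPM in Tet (-0.42, SE 0.37, adjusted p = 0.767).

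Of 5 genes reported to be silenced by EZH2 in neuroblastoma, 3 were tested, 0 passed, and RUNX3 was at 0. The fold was above 0 for all 3, at low levels. CASZ1, a neuroblastoma suppressor, was at 1.56, 2.38 and 1.22 CPM in EtOH and 2.55, 2.82 and 2.92 CPM in Tet (log2 fold change 0.69, SE 0.33, adjusted p = 0.513). CLU was at 1.81, 1.12 and 0.628 CPM in EtOH and 2.41, 2.71 and 5.51 CPM in Tet (1.57, SE 0.48, adjusted p = 0.270, and 0.0495 in DESeq2). In each gene the groups did not overlap.

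**Figure D5:**
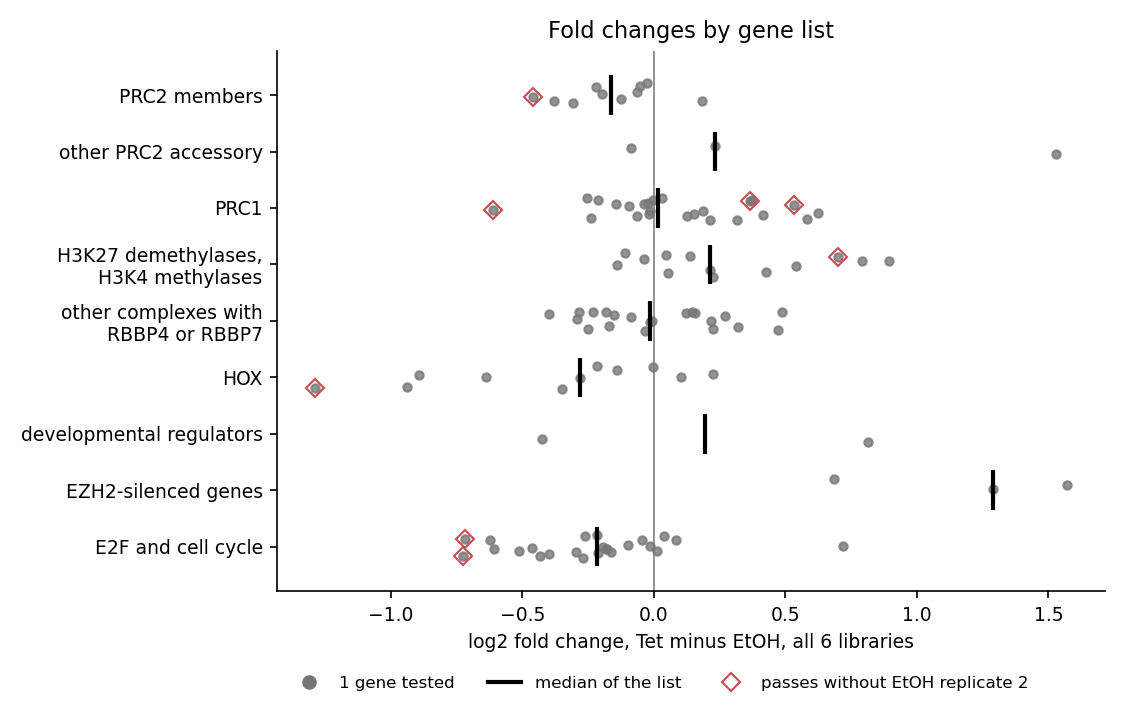
Log2 fold change of Tet against EtOH for every tested gene of 9 gene lists (grey points, spread vertically at random), with the list median as a black bar; diamonds mark genes that pass the test without EtOH replicate 2. The median lies at -0.16 for the PRC2 members, 0.01 for PRC1, -0.28 for HOX and -0.22 for E2F and cell cycle genes. No gene shown passes the main edgeR test with all 6 libraries, while some, HOXD13 among them, pass under alternatives such as DESeq2.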

How the data were processed

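Ribosome-depleted total RNA was sequenced as stranded paired-end libraries, 3 labelled EtOH and 3 labelled Tet. The authors deposited, per library, estimated counts per gene on GRCh38, which need not be whole because reads over several genes were shared out. The file headers name featureCounts 1.6.4 with fractional assignment of overlapping reads, no strand option and no multimapping reads, whereas the labels name STAR 2.7.1a and featureCounts 1.5.1 and the methods a strand setting and the counting of multimapping reads. By the headers, reads of antisense neighbours could not be separated and reads that fit pseudogene copies equally were not counted. Of the values, 12.3 to 14.7% were not whole. Counts were rounded to whole numbers. Genes passing filterByExpr were scaled by TMM and tested in edgeR 4.0.16 (quasi-likelihood, limma 3.58.1, R 4.3.3) with Benjamini-Hochberg adjustment at 0.05. CPM used TMM library sizes, and TPM used the exon lengths in the files. DESeq2 1.42.0, limma-voom, other scalings and filters, a replicate block and leaving out each library were alternatives. In simulated data with 200 changed genes among 21846, a log2 fold of 2 was recovered for 60.5%, and a log2 fold of 1 for 0% among 21810. Named genes were the members, their overlapping genes and copies, MYCN, the listed PRC2, PRC1 and demethylase genes and the highest and lowest tested gene of each other list. Members and lists were chosen with earlier results of these data known. Promoter sequences came from RefSeq.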

Additional observations from a re-analysis of the deposited data

How the results depend on the processing

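With 3 libraries a group and 1 that stood apart, differences such as those of the members could not be resolved. The count of members called was 0 under every other scaling, filter and test and 0 to 1 when a library was left out, the 1 being EZH1 without EtOH replicate 2 (log2 fold change -0.82, range -0.82 to -0.20). Genes called in all numbered 53, with 302 without the filter, 606 in DESeq2 and 675 with the replicate block. Leaving out 1 library gave 0 to 692: 692 without EtOH replicate 2, and 2, 1, 0, 1 and 0 without EtOH replicates 1 and 3 and Tet replicates 1, 2 and 3. The cause was not tested.

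The replicate numbers were not used in the main test, since same-numbered libraries deviated together with correlations of 0.06, 0.51 and 0.22 and not all passed 0.1. Between EtOH and Tet libraries of unlike number the correlations were -0.452 to 0.379. Whether equal numbers mark a shared batch or culture was not tested. With the replicate block, 0 members were called. For the log2 ratios, the mean difference within same-numbered pairs equals the difference of group means by construction, so that value could not change. An exact test that flips the signs of the 3 pairs gave p = 0.75 for EZH2 to EZH1 and 0.25 for RBBP4 to RBBP7. With 3 pairs 0.25 is the smallest p that this test allows, so it could not pass for either ratio. Of the other genes named here, the block called SCML2, HOXD13, NEUROG2, AURKA, SNAI2, PRRX1 and AUTS2, among 675 genes called in all.

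Some values changed sign. Leaving out each library, the difference in log2 ratio ran from -0.11 to 0.90 for EZH2 to EZH1 (below 0 without EtOH replicate 1 or 3 or Tet replicate 2) and from -0.050 to 0.23 for RBBP4 to RBBP7 (below 0 without EtOH replicate 1 or Tet replicate 2). Log2 fold changes ran from -0.19 to 0.084 for EZH2, -0.25 to 0.25 for SUZ12, -0.48 to 0.36 for EED, -0.21 to 0.0146 for RBBP4, -0.18 to 0.23 for MTF2 and -0.22 to 0.21 for MYCN. Outside the members they ran from -0.25 to 0.19 for LCORL, -0.17 to 0.0185 for RNF2, -0.22 to 0.36 for CBX2, -0.23 to 0.12 for MIR6755, -0.26 to 0.35 for SYNC, -0.0195 to 0.28 for SUZ12P1, -0.10 to 1.69 for RYBP, -0.12 to 1.22 for SETD1A, -0.29 to 0.68 for HOXC9, -0.72 to 0.046 for PAX6 and -0.44 to 0.018 for HAND2. SYNC was also above 0 in limma-voom (0.020) and with the replicate block (0.0145). Summing RBBP4 and SYNC was added after the data were seen. Of 140 member values under alternatives, 131 kept direction and call.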

Other observations

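RBBP4 and RBBP7 also serve histone deacetylase, nucleosome remodelling and chromatin assembly complexes. Of 22 other genes of those complexes 21 were tested and 0 passed, 9 with a fold above 0 and 12 below, at a median log2 fold change of -0.02. SAP30, of the SIN3 deacetylase complex, had the highest value, 0.49 (SE 0.44, adjusted p = 0.774), and was at 15.6, 39.0 and 15.2 CPM in EtOH and 25.7, 50.5 and 21.6 CPM in Tet, so that replicate 2 was the high library in each group. CHAF1A, of the chromatin assembly factor that loads histones behind the replication fork, had the lowest, -0.40 (SE 0.23, adjusted p = 0.612), with 12.1, 16.7 and 10.1 CPM in EtOH and 8.93, 10.9 and 9.56 CPM in Tet.

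Among the markers of cell state, CHGA, a granin of neuroendocrine vesicles, was at 1.14, 0.433 and 0.992 CPM in EtOH and 1.63, 2.23 and 7.88 CPM in Tet (log2 fold change 2.18, SE 0.65, adjusted p = 0.255, with 0.0217 in DESeq2 and 0.0339 without the filter on low counts). HAND2 was at 137, 60.1 and 135 CPM in EtOH and 86.9, 84.4 and 129 CPM in Tet. The mesenchymal factor SNAI2 was at 1.62, 4.87 and 0.826 CPM in EtOH and 4.96, 16.3 and 4.78 CPM in Tet (1.84, SE 0.70, adjusted p = 0.389), and passed without EtOH replicate 2 (adjusted p = 0.0451). PRRX1 was at 59.5, 136 and 62.5 CPM in EtOH and 33.6, 55.5 and 38.5 CPM in Tet (-1.02, SE 0.34, adjusted p = 0.317). The leukocyte marker PTPRC was at 0.176 to 0.642 CPM (-0.52, SE 0.53, adjusted p = 0.809).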
